A study of Homo sapiens with 2 samples.

Results

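Heat shock proteins and their DNAJ cochaperones were examined in H2228 cells treated with IL4 and in untreated H2228 cells. The genes were taken by symbol: all that start with DNAJ, HSPA, HSPB or HSP90, plus HSPD1, HSPE1, HSPH1 and HSF1, without HSPBAP1, HSPBP1 and pseudogenes. Probe sets assigned to a single gene gave 73 such genes of the 19775 genes measured, of which 68 encode proteins and 5 are antisense or divergent RNAs named after a neighbouring gene of the family. H2228 is a lung adenocarcinoma cell line with the EML4-ALK variant 3 fusion, and IL4 is a cytokine that signals through JAK kinases and STAT6. RNA of each condition was hybridized to 1 Affymetrix Human Genome U133 Plus 2.0 array. The series description gives the IL4 treatment as 100 ng/mL for 30 min, and the untreated cells received no agent. The labels of both samples also mention transfections of 48 h with EML4-ALK plasmid or siRNA. The sources used here do not say whether these transfections apply to these cells. With 1 array per condition there was no test, and each difference below is the log2 value with IL4 minus the log2 value in untreated cells, without an error between cultures. The median of all probe sets, 5.03, was taken as the level below which values are dim.

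Heat shock proteins are molecular chaperones that hold, fold or pass on other proteins. HSP70 proteins bind and release client peptides in a cycle driven by ATP, which J proteins (products of the DNAJ genes) start through their J domain and which nucleotide exchange factors reset. HSP90 proteins act later on more structured clients such as kinases and hormone receptors, small heat shock proteins hold unfolded proteins, and the chaperonin of HSPD1 and HSPE1 encloses proteins in mitochondria. HSF1 is the transcription factor of the heat shock response. It binds heat shock elements in the promoters of inducible members, whereas many other members are made at all times. EML4-ALK fusion proteins are known clients of HSP90.

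Most of these genes had nearly equal values on both arrays. The median log2 difference was 0 over the 73 genes and 0 over all 19775 genes, and 32 members lay above 0, 36 below and 5 at 0. A share of 43.8% of the members lay above 0, against 45.5% of all genes. A size under 0.2 was found for 57.5% of the members and 58.4% of all genes, and the quartiles were -0.24 and 0.12 for the members, against -0.18 and 0.15 for all genes. Only DNAJC6 and HSPB8 were at least 1.5-fold higher with IL4, which is 2 of 73 (2.74%), against 3.21% of all genes. HSPA4L, DNAJB4, DNAJC13, DNAJC28 and HSPA13 were at least 1.5-fold lower, which is 5 of 73 (6.85%), against 4.39% of all genes. Each share rests on few genes, so no difference from all genes is read from them. With a loess correction for the level, 3 of 73 were lower, against 4.05% of all genes. Among the 57 members with both values at or above the median level, 2 were higher (3.51%) and 4 were lower (7.02%). Of 12600 genes selected in the same way, 4.19% were higher and 5.71% lower. The median difference was -0.033 for these members, against -0.029 for those genes. In RNA of whole cultures, fewer cells with a transcript and less of it per cell cannot be told apart.

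**Figure D1:**
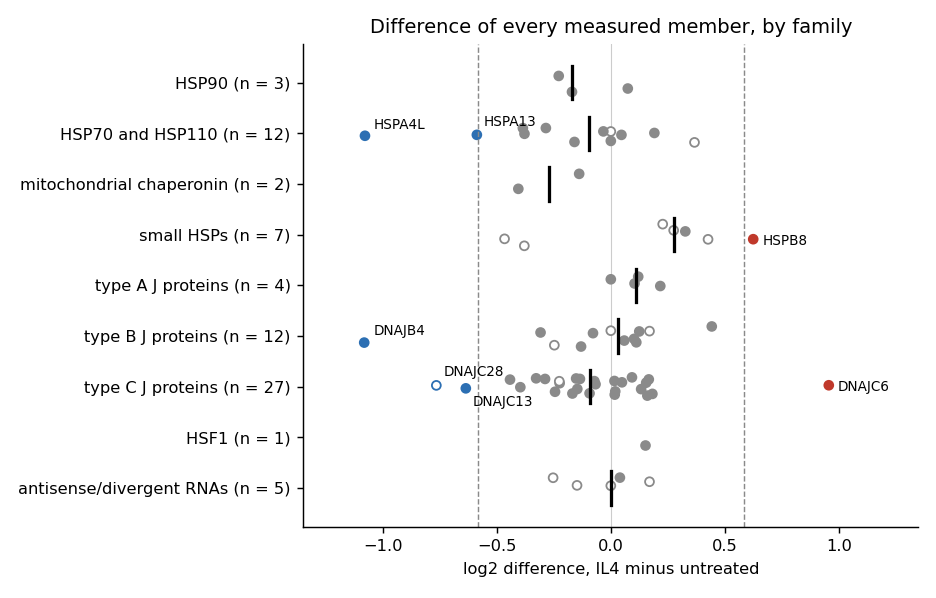
Log2 difference, IL4 minus untreated (x axis), of all 73 members (points) by family (rows, number of genes in brackets), scattered vertically for visibility, with 1 array per condition. Black bars are family medians, dashed lines mark 1.5-fold, open points have a value below the median of all probe sets, and red and blue points are the 2 genes past 1.5-fold higher and the 5 past 1.5-fold lower.

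In the HSP70 and HSP110 family, 12 genes were measured, of which 3 lay above 0, 7 below and 2 at 0, with a median of -0.096. HSPA4L, an HSP110-type protein that exchanges nucleotides on HSP70, had 5.21 with IL4 and 6.29 in untreated cells, a difference of -1.08 or 2.11-fold lower. Its further probe set had 3.28 with IL4 and 4.61 in untreated cells, both dim, with a difference of -1.33 in the same direction. The related HSPH1 and HSPA4, which serve the same purpose, had smaller differences of -0.29 and -0.16. HSPH1 had 9.84 with IL4 and 10.12 in untreated cells, and HSPA4 had 10.07 with IL4 and 10.23 in untreated cells. HSPA13, a short HSP70-like protein of microsomes, had 9.10 with IL4 and 9.68 in untreated cells, a difference of -0.59. This is 1.5-fold lower and hardly past the level used, and the further probe set of HSPA13 differed by -0.12, well short of it. HSPA2 and HSPA14, the second of which works at the ribosome, had differences of -0.39 and -0.38. For HSPA14 the direction depended on the probe set, since its other probe sets had 0.33 and 0.29.

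The major stress-inducible members of the family, HSPA1A and HSPA1B, had no probe set of their own. Of the probe sets annotated with both genes, the brighter one had 11.20 with IL4 and 11.57 in untreated cells, and the other had 9.54 with IL4 and 10.08 in untreated cells. Another probe set, annotated with HSPA1L as well, had 9.88 with IL4 and 10.40 in untreated cells. The differences were -0.37, -0.54 and -0.52, all lower and all less than 1.5-fold. HSPA8, the constitutive HSP70 of the cytosol, was covered by 4 probe sets that the annotation also gives to small nucleolar RNAs of its introns, with differences of -0.0043 to 0.12. HSPA6, which is made almost only under stress, had 5.83 with IL4 and 5.78 in untreated cells. The endoplasmic reticulum chaperone HSPA5 (BiP) had 11.87 with IL4 and 11.68 in untreated cells, a difference of 0.19 with 0.24 on its other probe set. The mitochondrial HSPA9 had 11.12 with IL4 and 11.16 in untreated cells. HSPA1L and HSPA12A had the same value on both arrays, and HSPA12B was dim with a difference of 0.37.

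The 3 HSP90 genes differed by at most 1.17-fold on the probe sets that stand for them. HSP90AA1, the inducible cytosolic form, had 12.84 with IL4 and 13.01 in untreated cells, a difference of -0.17, and its 4 probe sets all lay below 0, between -0.34 and -0.15. HSP90AB1, the constitutive cytosolic form, had 12.17 with IL4 and 12.10 in untreated cells, a difference of 0.075, and its 3 probe sets all lay above 0, up to 0.40. HSP90B1 (GRP94), the form of the endoplasmic reticulum, had 10.34 with IL4 and 10.57 in untreated cells, a difference of -0.23. A pair of probe sets that it shares with a microRNA gene had -0.20 and -0.25. The inducible and the constitutive cytosolic form thus lay on opposite sides of 0 on every probe set. Of the mitochondrial chaperonin, HSPD1 (HSP60) had 12.58 with IL4 and 12.71 in untreated cells, a difference of -0.14. Of its 5 probe sets, 3 much dimmer ones lay above 0, up to 0.079, and 2 lay below, down to -0.18. The partner of HSPD1, HSPE1 (HSP10), had 10.79 with IL4 and 11.19 in untreated cells, a difference of -0.41.

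Of 7 small heat shock protein genes, HSPB1 and HSPB8 had both values above the median level, and both were higher with IL4. HSPB8, which works with BAG3 in the removal of misfolded proteins by autophagy, had 8.35 with IL4 and 7.73 in untreated cells, a difference of 0.62 or 1.54-fold higher. A dimmer probe set of HSPB8 did not show this, with 5.98 in IL4-treated and 5.92 in untreated cells, a difference of 0.066. The probe set that stands for the gene is of a design that can bind several transcripts, so without such probe sets HSPB8 was not past 1.5-fold. HSPB1 (HSP27), which protects actin filaments and is abundant in many carcinomas, had 9.08 with IL4 and 8.75 in untreated cells on its single probe set, a difference of 0.33. HSPB2, HSPB3, HSPB6, HSPB7 and HSPB9 were dim on both arrays, with differences of -0.47 (HSPB9) to 0.43 (HSPB3). HSPB2 also shares a probe set with a readthrough transcript and a neighbouring gene, which had 5.66 with IL4 and 6.57 in untreated cells, in the other direction from the probe set of HSPB2 alone.

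**Figure D2:**
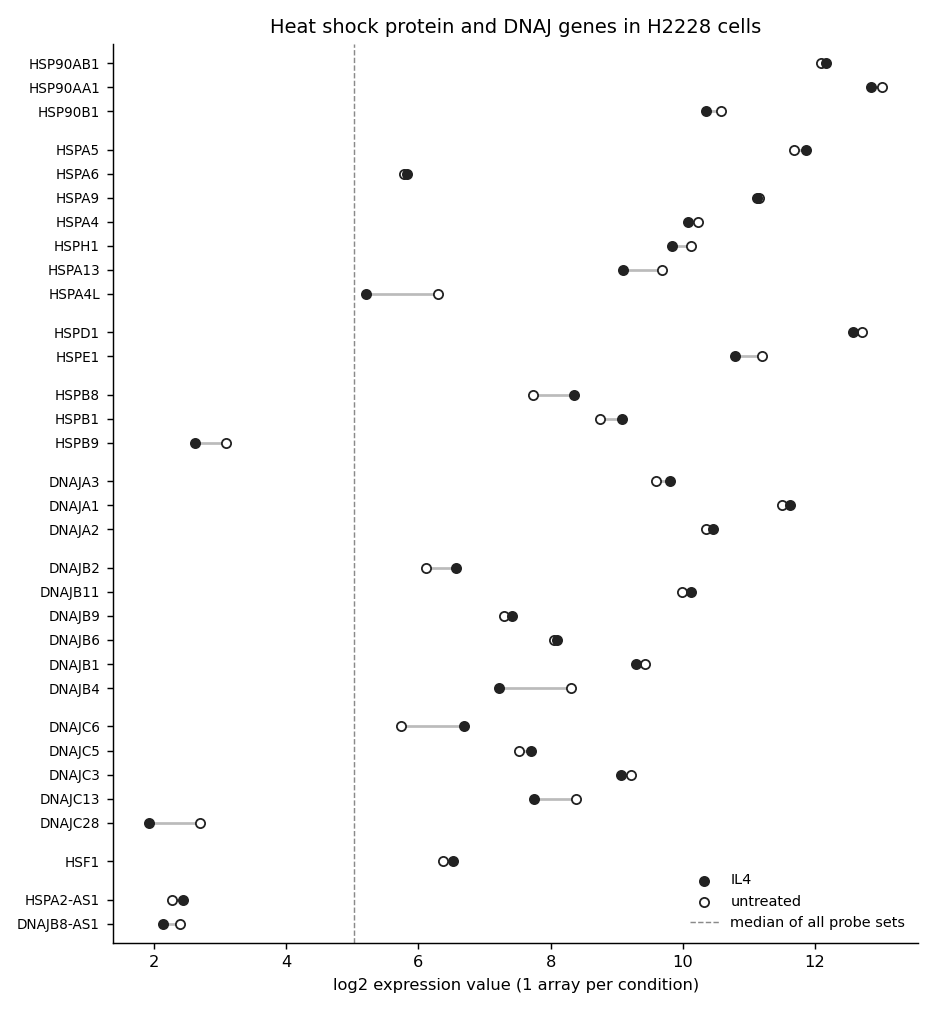
Log2 expression values (x axis) of 32 members (rows, grouped by family) with IL4 (filled circles) and in untreated cells (open circles), 1 array each; probe sets differ in brightness, so levels of different genes are not comparable. The dashed line is the median of all probe sets, 5.03; HSPA4L, DNAJB4 and DNAJC6 show the widest gaps of the genes to its right, and DNAJC28 lies to its left on both arrays.

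J proteins of type A, which resemble bacterial DnaJ most, differed little. DNAJA1 and DNAJA2, partners of cytosolic HSP70, had differences of 0.12 and 0.10. DNAJA1 had 11.62 with IL4 and 11.50 in untreated cells, and DNAJA2 had 10.45 with IL4 and 10.35 in untreated cells. DNAJA3, the mitochondrial form, had 9.81 with IL4 and 9.60 in untreated cells, a difference of 0.22. DNAJA4 had 6.10 on both arrays on the probe set that stands for it, while another had 5.00 with IL4 and 5.27 in untreated cells, a difference of -0.27. By the probe sets that stand for them, none of the 4 genes lay below 0.

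Of 12 type B genes, 6 lay above 0 and 5 below, and DNAJB4 stood apart from the rest. DNAJB4 (HLJ1), a cytosolic J protein known as a suppressor of invasion in lung adenocarcinoma, had 7.22 with IL4 and 8.30 in untreated cells, a difference of -1.08 or 2.12-fold lower. Its other probe set had 7.04 with IL4 and 7.87 in untreated cells, which is 1.77-fold lower, so both probe sets were past 1.5-fold in the same direction. DNAJB1, the classical inducible partner of HSP70, had 9.30 with IL4 and 9.43 in untreated cells, a difference of -0.13 with -0.0080 on its other probe set. DNAJB2, which can bind ubiquitin chains, had the largest positive difference of the class at 0.44, with 6.56 in IL4-treated and 6.12 in untreated cells. DNAJB14, a membrane protein of the endoplasmic reticulum, had -0.31 on the probe set that stands for it, and its 3 probe sets lay between -0.36 and -0.31. The remaining type B genes had differences of -0.25 (DNAJB13) to 0.17 (DNAJB8), and DNAJB8 was dim on both arrays.

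DNAJB6, which keeps polyglutamine proteins from aggregating, gave different answers on different probe sets. The probe set assigned to DNAJB6 alone had 8.10 with IL4 and 8.04 in untreated cells, a difference of 0.059. A pair of brighter probe sets assigned to both DNAJB6 and TMEM135 had 10.55 and 9.96 with IL4, against 9.66 and 9.31 in untreated cells, which is 1.85-fold and 1.57-fold higher. The bright probe set assigned to TMEM135 alone had 7.91 with IL4 and 8.41 in untreated cells, a difference of -0.50. When shared probe sets were admitted, as an alternative chosen after the values were seen, 76 entries were counted. DNAJB6 then joined the higher genes (3 in all) and HSPB2 the lower ones (6 in all). Of all genes under this alternative, 3.22% were higher and 4.39% lower.

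Type C proteins share little with each other outside the J domain. Their 27 genes included 1 higher (3.70%) and 2 lower (7.41%), against 3.21% and 4.39% of all genes. DNAJC6 (auxilin), which recruits HSPA8 to strip clathrin from vesicles and is best known from neurons, had 6.69 with IL4 and 5.73 in untreated cells, a difference of 0.96 or 1.94-fold higher. Its only other probe set was near the lower end of the scale, with 1.91 in IL4-treated and 2.02 in untreated cells, and both are of the design that can bind several transcripts. DNAJC13 (RME-8), an endosomal J protein, had 7.75 with IL4 and 8.39 in untreated cells, a difference of -0.64 or 1.55-fold lower, while its further probe sets had -0.11 and -0.16. DNAJC28 had 1.93 with IL4 and 2.69 in untreated cells. Both values were dim, so no fold is given. The 24 other genes ran from -0.44 to 0.18. DNAJC12, a partner of the hydroxylases of aromatic amino acids, lay at the lower end with 6.18 with IL4 and 6.62 in untreated cells, and DNAJC5, the cysteine string protein of secretory vesicles, at the upper end with 7.70 with IL4 and 7.52 in untreated cells. All 3 probe sets of DNAJC5 lay above 0, up to 0.41.

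HSF1 itself had 6.53 with IL4 and 6.37 in untreated cells, a difference of 0.15 with 0.20 on its other probe set. The mRNA does not show whether the protein was active. The 5 antisense and divergent RNAs (DNAJB8-AS1, DNAJC27-AS1, DNAJC3-DT, DNAJC9-AS1 and HSPA2-AS1) had differences of -0.25 to 0.17, and only DNAJC9-AS1 was at or above the median level, with 5.20 in IL4-treated and 5.16 in untreated cells.

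A list of compartments, made after the values were seen and not complete, placed 10 members in or at the endoplasmic reticulum and 8 in mitochondria. Members without an entry, DNAJC28 among them, are not in the counts below. Of the first group, 5 lay above 0 and 5 below, with a median of -0.023, and HSPA13 was the 1 past 1.5-fold. Its members that also belong to the unfolded protein response lay on both sides of 0. Besides HSPA5 and HSP90B1, DNAJB9 had 7.41 with IL4 and 7.30 in untreated cells, and its other probe sets had differences of 0 and -0.10. DNAJB11 had 10.12 with IL4 and 9.99 in untreated cells, and DNAJC3 had 9.07 with IL4 and 9.21 in untreated cells. All 4 probe sets of DNAJC3 lay below 0, the one furthest from it at -0.55 with 6.84 with IL4 and 7.39 in untreated cells. Of the mitochondrial group, 2 lay above 0 and 6 below, with a median of -0.10 and none past 1.5-fold. Of all genes with both values at or above the median level, 44.0% lay above 0. HSPA9, at -0.033, moved to 0.0035 with quantile normalization and to 0.033 with a loess correction. Besides HSPE1 the lowest values of the group were those of DNAJC19 and DNAJC15, with differences of -0.40 and -0.33. Both are J proteins of the protein import motor at the inner membrane. DNAJC19 had 8.97 with IL4 and 9.37 in untreated cells, and DNAJC15 had 7.73 with IL4 and 8.06 in untreated cells.

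Probe sets of the same gene give the only repeated measurement in these data, and they come from the same arrays. The 73 members had 173 probe sets, up to 7 per gene, and 18 had a single one. For the 37 members with a second probe set at or above the median level, the second differed from the first by 0.22 (root mean square), against 0.25 over 6056 such genes, and 30 of the 37 had the same direction on both. A difference of a size under 0.22 is therefore within the disagreement between probe sets of 1 gene. Over the bright probe sets of a member the range of the difference had a median of 0.16 and was widest for HSPA14 at 0.71. Of the 7 genes past 1.5-fold, only DNAJB4 and HSPA4L had a further probe set that also passed it, and that of HSPA4L was dim.

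**Figure D3:**
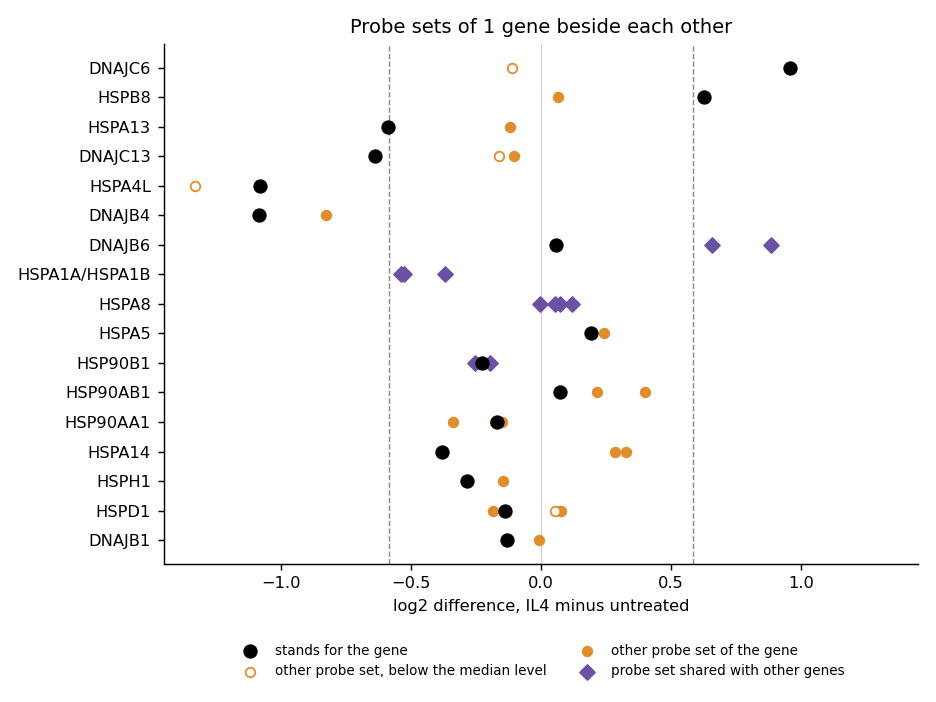
Log2 difference, IL4 minus untreated (x axis), of every probe set of selected genes (rows), 1 array per condition. Black points stand for the gene, orange points are its other probe sets (open below the median level), purple diamonds are probe sets shared with other genes, and dashed lines mark 1.5-fold; DNAJB4 and HSPA4L have all their probe sets past the left line, and the diamonds of DNAJB6 lie past the right line while its own probe set lies at 0.059.

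Promoters were searched for the heat shock element, to which HSF1 binds, in the RefSeq windows of GRCh38.p14 (250 bases before to 50 after each start). The element is built of units GAA and TTC in alternating orientation. Runs of 3 units were counted (GAA, TTC, GAA or TTC, GAA, TTC, with 2 bases of any kind between units), and these forms are reverse complements of each other. Runs of 2 units (GAA, TTC or TTC, GAA with the same spacing) were counted too. Each is its own reverse complement, so both strands are covered, and every 3-unit match holds 2 overlapping 2-unit matches. Of the 68 protein-coding members, 60 had a window. A match to 3 units was found in 6 of their 79 windows (7.59%), against 0.490% of all 35116 windows, and a match to 2 units in 20 (25.3%), against 13.5%. The 6 genes with 3 units were DNAJA1, DNAJB6, HSP90AA1, HSP90AB1, HSPA6 and HSPD1, and HSPA8, which is not a member because its probe sets are shared, had them too. Their log2 differences ran from -0.17 (HSP90AA1) to 0.12 (DNAJA1), so none of the promoters with 3 units belonged to a gene past 1.5-fold by the probe set that stands for it. Of the genes past 1.5-fold, DNAJB4, HSPA4L, DNAJC6 and HSPB8 had a match to 2 units in at least 1 window, as did 19 of the 60 members and 4417 of all 27305 genes. DNAJB4, HSPA4L and DNAJC6 have several windows each, of which 1 holds the match, and that of DNAJC6 lies after the start. Genes with several windows have more room for a match, so no excess is read from these counts.

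The 250 bases before a start are shown for 5 genes, 5′ to 3′ on the strand of the gene, with the matches in capitals. HSP90AA1 and DNAJB1 are examples of inducible members, with differences of -0.17 and -0.13. HSPA1A is an example of the inducible genes on shared probe sets only, with differences of -0.54 to -0.37. These examples lay below 0, whereas the stress-made HSPA6 had 0.047 and DNAJA1, with a match to 3 units, had 0.12. No direction of the inducible members is therefore read from the genes shown. DNAJB4 is shown for the lower and HSPB8 for the higher genes.
HSP90AA1, chr14:102087045-102087294, minus strand: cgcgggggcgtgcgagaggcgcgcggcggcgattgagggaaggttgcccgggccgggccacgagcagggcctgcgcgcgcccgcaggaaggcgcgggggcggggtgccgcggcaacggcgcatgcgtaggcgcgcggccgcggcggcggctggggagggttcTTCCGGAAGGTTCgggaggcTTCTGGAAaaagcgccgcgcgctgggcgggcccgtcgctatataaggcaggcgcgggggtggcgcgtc
DNAJB1, chr19:14518398-14518647, minus strand: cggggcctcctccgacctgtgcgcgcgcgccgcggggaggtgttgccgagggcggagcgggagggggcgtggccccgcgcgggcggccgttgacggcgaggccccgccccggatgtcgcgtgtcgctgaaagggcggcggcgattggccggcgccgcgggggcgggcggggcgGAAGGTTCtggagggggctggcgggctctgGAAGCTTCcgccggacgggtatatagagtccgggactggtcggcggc
HSPA1A, chr6:31815293-31815542, plus strand: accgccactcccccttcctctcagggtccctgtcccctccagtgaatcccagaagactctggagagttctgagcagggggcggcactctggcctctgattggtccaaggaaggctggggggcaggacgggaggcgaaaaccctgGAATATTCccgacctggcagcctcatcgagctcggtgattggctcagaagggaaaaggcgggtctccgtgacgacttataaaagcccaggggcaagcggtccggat
DNAJB4, chr1:78004689-78004938, plus strand: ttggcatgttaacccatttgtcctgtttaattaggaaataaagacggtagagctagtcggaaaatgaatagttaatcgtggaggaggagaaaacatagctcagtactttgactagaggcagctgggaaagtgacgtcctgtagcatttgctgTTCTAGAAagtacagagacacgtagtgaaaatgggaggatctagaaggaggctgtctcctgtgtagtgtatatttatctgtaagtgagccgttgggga
HSPB8, chr12:119178681-119178930, plus strand: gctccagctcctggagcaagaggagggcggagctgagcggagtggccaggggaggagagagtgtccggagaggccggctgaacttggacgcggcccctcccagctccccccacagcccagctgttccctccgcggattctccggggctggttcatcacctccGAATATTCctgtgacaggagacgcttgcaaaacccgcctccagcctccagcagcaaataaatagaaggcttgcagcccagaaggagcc
The stretch of HSP90AA1 carries 1 match to 3 units next to a further match to 2 units, that of DNAJB1 carries 2 separate matches to 2 units, and the others carry 1 each. HSPB8 has a further match after the start, which is not shown. The stretches shown for HSP90AA1, DNAJB1 and DNAJB4 belong to 1 of several starts of these genes. A match is a run of letters and does not show that HSF1 was bound, and the array does not tell which start was used.

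Of 53 further genes of the chaperone system, 48 were measured, of which 1 (2.08%) was at least 1.5-fold higher and 0 lower. Of all genes, 3.21% were higher and 4.39% lower. The median of the 48 was -0.075, and 17 (35.4%) lay above 0. Both values were at or above the median level for 46 of the 48. Over all genes with such values the median was -0.029, and 44.0% lay above 0. The gene past 1.5-fold was GRPEL1, the nucleotide exchange factor of mitochondrial HSPA9. It had 9.75 with IL4 and 9.09 in untreated cells, a difference of 0.66 or 1.58-fold higher. BAG3, an exchange factor that is itself induced by heat and partner of HSPB8, was named after its value was seen. It had 9.52 with IL4 and 10.04 in untreated cells, a difference of -0.52 and the lowest of the 48. Of 8 subunits of the cytosolic chaperonin TRiC, 7 lay below 0, between -0.37 (CCT8) and -0.038 (CCT5), and none was past 1.5-fold. Of all genes with both values at or above the median level, 53.3% lay below 0. The 15 HSP90 cochaperones measured had a median of 0.024, with TOMM34 highest at 0.57, just under the level.

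The values as deposited had a median of 5.04 on the IL4 array and 5.00 on the untreated array, and the median log2 difference of all 54675 probe sets was 0. All 10 epithelial markers fixed for the cell type check (EPCAM, keratins and lung markers among them) had a mean at or above the median level. Their differences went both ways, with a median of 0.22: NKX2-1, a transcription factor of the lung lineage, was lowest at -0.97, with 6.91 with IL4 and 7.88 in untreated cells, and CDH1 (E-cadherin) highest at 0.75, with 10.92 with IL4 and 10.18 in untreated cells. Of the defining markers of other cell types, the leukocyte gene PTPRC had 2.37 with IL4 and 2.50 in untreated cells and the endothelial gene CDH5 had 2.93 on both arrays. Of 6 fibroblast markers, only COL1A1 had a mean of both arrays above the median level, with 11.23 in IL4-treated and 10.82 in untreated cells. Among 4 leukocyte and 4 endothelial markers measured, 1 each (CD3E and PECAM1) had a mean above it. The median differences of the leukocyte, fibroblast and endothelial lists were 0.015, 0.12 and 0.22, and their part in the differences of the chaperone genes was not tested.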

How the data were processed

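Gene expression was measured on 2 Affymetrix Human Genome U133 Plus 2.0 arrays, 1 for IL4-treated and 1 for untreated H2228 cells. The authors deposited 1 value per probe set and array, on a log2 scale. RMA is named in the submitters' processing notes. It corrects background, equalizes arrays and summarizes probes, and its version is not given in the sources used here. Scanner files were not used here, so these steps could not be varied, and the number of arrays limits the precision.

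Of 54675 probe sets, 41097 had 1 gene in the array annotation and 1801 had several. Symbols were updated through gene numbers to RefSeq (GRCh38.p14) for 41043 of the 41097. Of several probe sets of a gene, the one with the highest mean over both arrays was used. Differences of 1.5-fold or more were counted, in each direction. Of 73 protein-coding genes that fit the symbol rule in RefSeq, 68 had a probe set of their own. The other 5 (DNAJC25, DNAJC25-GNG10, HSPA1A, HSPA1B and HSPA8) were on shared probe sets only.

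The genes, lists and alternatives were chosen with earlier results of these data known, and the compartments after the values were seen. Named genes are all members past 1.5-fold, the largest differences of each family, and core chaperones whatever their value. Further members named for their role or as the ends of a range were chosen after their values were seen. Calculations were tested on simulated data and used Python 3.11.15, numpy 2.4.6, pandas 2.3.3, statsmodels 0.14.6 and matplotlib 3.10.9.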

Additional observations from a re-analysis of the deposited data

How the results depend on the processing

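The counts rest on few genes. At 2-fold, 0 members were higher and 2 (DNAJB4 and HSPA4L) were lower, against 1.11% and 0.890% of all genes. Averaged over the probe sets of a gene, 0 were higher and 3 were lower, against 2.51% and 2.97% of all genes. The 3 lower ones were DNAJB4, DNAJC28 and HSPA4L. DNAJC6 averaged 0.42, HSPB8 0.35, DNAJC13 -0.30 and HSPA13 -0.35. A loess correction on the level (fraction 0.3) left 3 lower, against 4.05% of all genes, with -0.58 for DNAJC13 and -0.52 for HSPA13. Quantile normalization left 4 lower, against 4.34% of all genes, with -0.56 for HSPA13. With probe sets able to bind several transcripts left out, 60 members were measured. Of these, 0 were higher and the same 5 as before were lower, against 2.97% and 4.45% of all genes. DNAJC6 has no probe set of another design, and HSPB8 had 0.066. With a floor at the 75th percentile of all probe sets, 41 members stayed. Of these, 1 was higher and 3 were lower, against 5.38% and 6.45% of all genes there. Of the 41 members, 19 lay above 0, and their median was -0.067, against -0.061 for all genes there. DNAJB4 and HSPA4L were past 1.5-fold under each alternative that measured them. Of 235 recomputed differences of 32 named genes, 229 moved by less than 0.25 and none past 1.5-fold changed sign. Many of the 235 could not move, so this count does not measure how stable the differences are. Centring and the floors leave each difference as it is, and the choice among probe sets cannot change a gene with a single one. Centring changed nothing, since the median difference of all probe sets is 0. The floor at the median, the largest difference per gene, protein-coding members only and the added use of shared probe sets kept the counts within 1.5 times. No replicate could be left out, and no paired analysis was possible because each condition has 1 array.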

Other observations

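A property of the deposited values bears on all dim members and also on some brighter ones. Over all probe sets, 8.28% had equal values on both arrays (within 1e-06), and for 73.1% the size of the difference, to 6 decimals, was found on at least 1 other probe set. This was so for 93.4% of probe sets below the median level and 52.8% of those at or above it. Among the members, 5 had equal values on both arrays (DNAJA4, DNAJB7, HSPA12A, HSPA1L and DNAJC3-DT). The size of the difference of DNAJB8 and HSPA2-AS1, 0.17, was found on 207 probe sets in all, and that of HSPB2, 0.28, on 241. The difference of DNAJC28, -0.77, was found in size on 9 probe sets. Among members with both values at or above the median level, that of HSF1, 0.15, was found on 32 and that of DNAJC18, 0.13, on 67. All 14 members below the median level on both arrays had a difference of a size that recurs, as did 33 of the 73 members. The differences of DNAJB4, HSPA4L, DNAJC6, DNAJC13 and HSPA13 did not recur, while that of HSPB8, 0.62, was found in size on 2 probe sets, its own included. The source of the recurring values was not tested.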
